A study of Mus musculus with 19 samples.

Results

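The major urinary protein (Mup) family was followed in hepatocytes, the parenchymal cells of the liver, of young and old male mice. The members are the 9 rows of the deposited count table whose gene symbol is Mup1, Mup2, Mup3, Mup7, Mup14, Mup15, Mup17, Mup20 or Mup21, out of 24537 rows. They were selected on their levels in old against young mice in these same libraries, so the age differences of the members are given below as a description, without a test. The table holds 12 further rows named Mup and a number, which are given beside the members because near-identical copies can share reads.

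Poly(A) RNA was sequenced from 19 wild-type C57BL/6J male mice of a single line, with 1 library per mouse and hepatocytes obtained by 2-step perfusion. No transgene, treatment or deletion is named for either group. The young group held 10 mice labelled 5 months (140 days at the first cull day and 163 at the second, by the dates in the labels), 5 on each cull day, and the old group held 9 mice labelled 24 months (719 and 742 days), 5 culled with the first young mice and 4 with the second. The cull days were 23 days apart, and mice are named here by their library numbers.

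Major urinary proteins are small lipocalins, barrel-shaped carriers of hydrophobic ligands, which the mouse liver secretes into the blood and the kidney passes into the urine. There they bind and slowly release volatile pheromones and mark the individual and the male. Their transcription in the liver is known to depend on the pulsatile, male pattern of growth hormone acting through the growth hormone receptor and STAT5, and on androgens, glucocorticoid and thyroid hormone. The genes and many pseudogenes lie in 1 cluster on chromosome 4, where a central block of recently duplicated, near-identical copies is flanked by older and more divergent genes.

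Libraries held 17381439 to 20287628 counts over genes. Levels are given in CPM, the counts of a row divided by the total over all genes of its library and multiplied by 1000000. All 12 hepatocyte marker genes fixed for the check of the label passed the filter on low counts, and their summed level was 120149 to 168092 CPM in young mice and 162908 to 215678 CPM in old mice, a sum to which albumin contributes most. One by one, 2 of these 12 markers were higher and 5 lower in old mice (median log2 fold change -0.28), the lower ones including Tat, a tyrosine aminotransferase (-1.10, edgeR adjusted p = 0.000323), and the urea cycle enzymes Cps1 (-0.64, edgeR adjusted p = 0.00177) and Ass1 (-0.61, edgeR adjusted p = 0.00278). Markers of other liver cells were present at far lower summed levels and were higher in old mice for 13 of 14 macrophage genes, 9 of 14 endothelial genes and 14 of 14 stellate cell genes (edgeR's quasi-likelihood test, Benjamini-Hochberg adjusted p under 0.05). Of all 12269 rows tested, 30.9% passed this threshold in either direction and 14.5% passed it as lower in old mice. Without old mouse 1187, which had the highest summed macrophage level (3916 CPM, while the remaining old mice had 74.5 to 810 CPM), 3 macrophage genes passed. Young mice 1184, 1186 and 1188 stood apart in acute phase genes, with 75711 to 118219 CPM where the remaining young mice had 23481 to 29194 CPM. In bulk libraries, fewer cells of a type and less RNA per cell cannot be told apart.

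The 9 members lay on the minus strand of chromosome 4 (mm10, coordinates counted from 1). Mup7 spanned 60066469 to 60070475, Mup1 spanned 60498013 to 60501960, Mup14 spanned 61300037 to 61303998, Mup15 spanned 61435787 to 61439704 and Mup17 spanned 61591931 to 61595832. At the far end of the cluster, Mup20 spanned 62050235 to 62054117, Mup3 spanned 62083476 to 62087312 and Mup21 spanned 62147832 to 62150841. The Mup15 row was listed with 2 copies. The table's Mup2 row ran from 61300019 to 61439702 and was listed with 3 copies, so it covers the positions of Mup14 and Mup15. RefSeq places the start of Mup2 elsewhere, in a promoter window at 60139807 to 60140106, more than 1 Mb from the counted row. The transcript and promoter of Mup2 described below are those of the gene of that name, and which copies its counts measure is uncertain. How counts at several copies were combined is not given in the sources used here.

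The members differed in how far their sequences set them apart. Among the GENCODE M21 transcripts of Mup1, Mup2, Mup7, Mup14, Mup15 and Mup17, called the central members below, identity was 94.42% to 99.57% over 15 pairs. Between these and Mup3, Mup20 or Mup21, called the distal members, it was 77.87% to 90.33% over 18 pairs, and among the distal members 84.62% to 94.79% over 3 pairs. Of all 100-base windows of the transcript, 96.8% occurred in no other gene for Mup3, 95.5% for Mup21 and 61.2% for Mup20, against 40.6% for Mup17, 18.4% for Mup7, 12.8% for Mup1, 8.6% for Mup14 and 2.66% each for Mup2 and Mup15. Counts of single central rows are therefore uncertain in how reads were divided among them. Their sum does not depend on that division, unless rows counted the same reads, but can still share reads with rows outside the members. The closest transcript was a non-member for Mup1 (Mup12), Mup2 (Mup19), Mup7 (Mup8) and Mup17 (Mup11), and was Mup2 for Mup14 and Mup15. The distal rows are less exposed to such sharing.

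The sequence around the transcription start also differed between the central members with a window and Mup3 and Mup21. Windows of 250 bases before to 50 after the start (RefSeq, GRCm38.p6) were found for 7 of 9 members, not for Mup1 and Mup20. Shown here are 2 central members with large age differences and the 2 distal members with a window, each from the first AATCAAT to the TATATA next to the start. Capitals mark those 2 motifs, and each sequence reads 5′ to 3′ on the minus strand, at chr4:61595852-61596044 for Mup17, chr4:61439724-61439914 for Mup15, chr4:62087323-62087480 for Mup3 and chr4:62150844-62150998 for Mup21.
Mup17: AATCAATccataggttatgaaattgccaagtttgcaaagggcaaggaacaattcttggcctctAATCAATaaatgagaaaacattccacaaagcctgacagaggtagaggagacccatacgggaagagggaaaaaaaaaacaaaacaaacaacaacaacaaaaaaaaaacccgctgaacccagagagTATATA
Mup15: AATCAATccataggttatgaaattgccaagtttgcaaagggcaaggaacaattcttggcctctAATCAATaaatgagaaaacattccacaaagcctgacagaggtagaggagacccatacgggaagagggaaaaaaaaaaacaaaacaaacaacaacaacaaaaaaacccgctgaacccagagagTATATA
Mup3: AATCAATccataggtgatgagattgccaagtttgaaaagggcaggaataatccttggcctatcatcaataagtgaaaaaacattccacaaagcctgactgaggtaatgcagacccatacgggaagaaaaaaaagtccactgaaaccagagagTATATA
Mup21: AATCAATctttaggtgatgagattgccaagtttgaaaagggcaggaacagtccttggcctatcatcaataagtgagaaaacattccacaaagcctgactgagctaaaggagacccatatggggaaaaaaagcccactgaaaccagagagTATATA

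In these lines the central and distal genes run nearly parallel except in the A-rich stretch before TATATA, which is long in Mup17 and Mup15 and short in Mup3 and Mup21. AATCAAT, searched on both strands, occurred 2 times in the windows of Mup2, Mup7, Mup14, Mup15 and Mup17 and 1 time in those of Mup3 and Mup21. Of 32851 promoter windows of the same length, 2.86% held at least 1 copy and 0.17% at least 2. The stretch between ACCCATA and TATATA was 71 bases in Mup2, 68 in Mup17, 66 in Mup15 and 59 in Mup14, with 37 to 43 of them A, but 34 bases in Mup3 and 31 in Mup21, with 17 and 14 of them A. In Mup14 the TATATA lay 12 bases after the annotated start, so its stretch ran past the start. TATATA was in every member's window except that of Mup7, against 5.67% of all windows. The STAT5-type letters TTCNNNGAA, searched on both strands, were in none of the 7 windows and in 8.3% of all windows, which says only that these letters are not in this stretch. These measures were chosen after the members' values had been seen, and no test was made of them.

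The central members were far lower in old mice. Mup17, a central-type major urinary protein, had 260.5, 286, 859.6, 569.3 and 945.4 CPM in the young mice of the first cull day (mice 1180, 1182, 1184, 1186 and 1188) and 620.7, 902.8, 197, 181.7 and 46 CPM in those of the second (mice 1235, 1237, 1239, 1243 and 1244). Old mice had 4.5, 64.1, 21.1, 1.7 and 3.7 CPM on the first day (mice 1181, 1183, 1185, 1187 and 1189) and 3.5, 25.7, 3.3 and 9.7 CPM on the second (mice 1236, 1238, 1240 and 1242). The groups met at a single point, since old mouse 1183 lay above young mouse 1244 while the other 8 old mice lay below every young mouse. The fitted log2 fold change of Mup17, old minus young, was -5.11 (SE 0.735), or 34.6-fold lower in old mice, and it was -5.72 without old mouse 1183.

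Mup7 gave the most counts of the central members. Young mice, in the same order, had 4132, 3758, 4687, 3020, 5264, 5863, 9051, 2056, 3065 and 1385 CPM of Mup7. Old mice had 55, 542, 631, 26, 175, 279, 589, 257 and 578 CPM. The groups did not overlap, and the highest old mouse (1185) was below the lowest young mouse (1244). The log2 fold change of Mup7 was -3.64 (SE 0.527), a 12.4-fold lower level in old mice.

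The remaining central members repeated this pattern. Mup15 ranged from 541 to 3999 CPM in young mice (median 1903) and from 23.5 to 378 CPM in old mice (median 140), with no overlap and a log2 fold change of -3.63 (SE 0.479). Mup2 ranged from 561 to 3365 CPM in young mice (median 1691) and from 54.7 to 328 CPM in old mice (median 195), again with no overlap (log2 fold change -3.15, SE 0.383). Mup14 ranged from 801 to 2963 CPM in young mice (median 1503) and from 51.2 to 457 CPM in old mice (median 290), also without overlap (log2 fold change -2.84, SE 0.403). Mup1, at 114 to 504 CPM in young mice (median 277) and 16.6 to 133 CPM in old mice (median 51.0), overlapped by 1 old mouse, 1183 (log2 fold change -2.49, SE 0.342). Young mouse 1244 was the lowest young mouse for all 6 central members, and old mouse 1187 the lowest old mouse for 5 of them, Mup14 being lowest in old mouse 1181.

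The distal members held their level to a far greater extent. Mup20, also called darcin, is the male-biased protein that attracts females to a male's scent mark. Its level in the 10 young mice was 5496, 6255, 10461, 6353, 12377, 10363, 14392, 6140, 8545 and 11590 CPM. In the 9 old mice it was 3708, 11972, 10097, 10490, 6419, 11156, 14203, 8208 and 8953 CPM. These ranges lie over one another, with 1 old mouse (1181) below the lowest young mouse and none above the highest, and the log2 fold change of Mup20 was 0.01 (SE 0.204).

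Mup3 had 5587, 6838, 5389, 3125, 5646, 8149, 8659, 8293, 8469 and 6603 CPM in young mice. In old mice it had 3145, 5444, 4328, 2826, 3130, 5262, 5628, 5756 and 1785 CPM. Most old mice lay inside the young range, with 2 of 9 below it, and the log2 fold change was -0.68 (SE 0.195), 1.60-fold lower in old mice. The lower edge of that range was young mouse 1186 alone (3125 CPM), the next young mouse having 5389 CPM. On the second cull day the ages did not overlap, at 6603 to 8659 CPM in young mice and 1785 to 5756 CPM in old mice. Without young mice 1184, 1186 and 1188 the log2 fold change of Mup3 was -0.82. Mup21, the closest relative of Mup3 in this family at 94.79% identity, had a low level of 47.6 to 232 CPM in young mice (median 150) and 63.6 to 170 CPM in old mice (median 109). No old mouse lay outside the young range of Mup21, whose log2 fold change was -0.35 (SE 0.160).

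**Figure D1:**
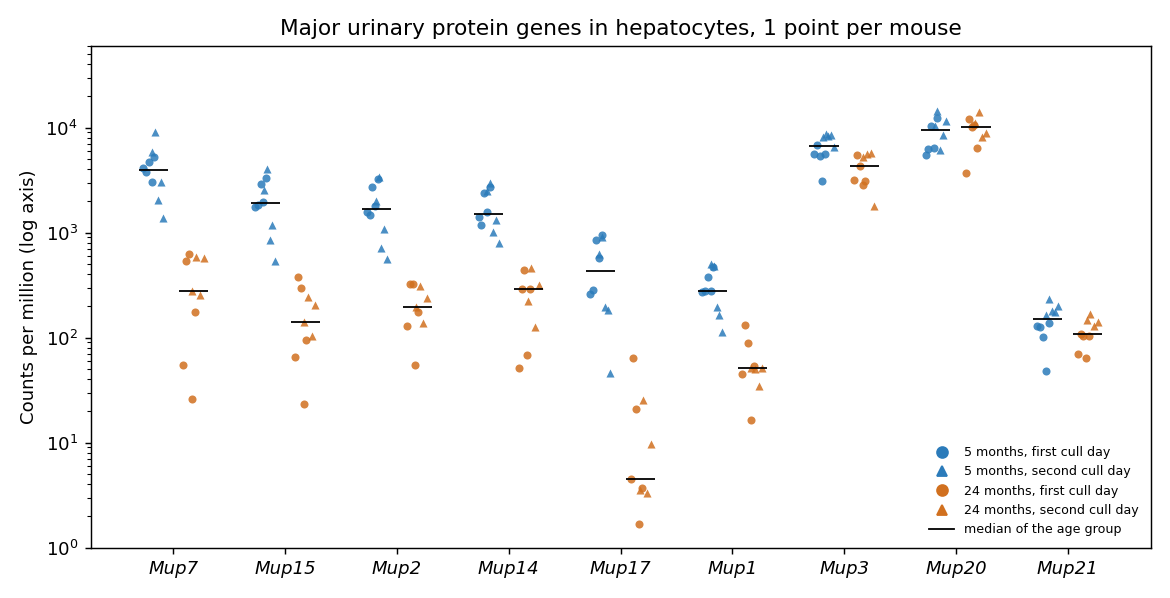
Level in CPM of each member in each mouse, on a log axis, with 10 mice of 5 months and 9 of 24 months, marker shape by cull day and the black line at the group median. Old mice lie below the young mice for the 6 central members on the left, apart from mouse 1183 in Mup17 and Mup1, while the groups overlap for Mup3, Mup20 and Mup21.

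In the fit over all 12269 rows that passed the filter on low counts, 30.9% passed an adjusted p of 0.05 for age and 14.5% passed it as lower in old mice. All 9 members passed the filter, and 7 of them, all but Mup20 and Mup21, were past that threshold as lower in old mice. For 4 members (Mup2, Mup7, Mup14 and Mup15) every old mouse lay below every young mouse, which was so for 0.579% of all rows tested. Since the members were selected on this contrast, nothing is read from these counts. The split into central and distal members was drawn after their values had been seen.

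Per kilobase of transcript, which allows levels of different genes to be set side by side, Mup20 had 10487 ± 3525 CPM per kilobase in young mice (SD, n = 10) and ranked 3 among all rows of the table. In order below it came Mup3 (7426 ± 1978), Mup7 (4129 ± 2136), Mup15 (2382 ± 1256), Mup2 (2069 ± 1099), Mup14 (1942 ± 843), Mup17 (555 ± 382), Mup1 (342 ± 152) and Mup21 (200.6 ± 70.8). Of the neighbours in that order, Mup3 and Mup7, and Mup14 and Mup17, differed by more than the larger of their SDs, and the others did not. In old mice Mup20 ranked 4 with 10795 ± 3544 CPM per kilobase (SD, n = 9), followed by Mup3 (4611 ± 1626) and then, at a distance, Mup7 (340 ± 235), Mup14 (275 ± 162), Mup2 (235 ± 108), Mup15 (196 ± 132), Mup21 (154 ± 47.4), Mup1 (63.7 ± 37.0) and Mup17 (17.4 ± 23.1). There the neighbours from Mup7 to Mup21 differed by less than the larger SD, and all other neighbours by more. Mup17 moved from rank 120 in young mice to rank 2698 in old mice.

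The summed level of the members, which does not depend on how reads were divided among member rows unless rows counted the same reads, had a mean of 26781 CPM and an SD of 8184 in the 10 young mice. In the 9 old mice the mean was 14785 CPM with an SD of 4473. Its log2 ratio, old to young, was -0.86. This sum was 1.88% to 4.405% of all counts in young mice and 0.73% to 2.17% in old mice, and 7 of 9 old mice lay below every young mouse. The 6 central members alone summed to 10758 ± 5332 CPM in young mice and 1057 ± 615 CPM in old mice, with no overlap (3448 to 20767 CPM against 192 to 1805 CPM). Over all 21 Mup rows the sum was 31149 ± 9707 CPM in young mice and 15778 ± 4703 CPM in old mice.

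The make-up of the family also differed by age. Mup20 took 34.4% ± 7.23 of the summed member counts in young mice and 63.5% ± 7.99 in old mice. The 6 central members together took 38.9% ± 11.4 (15.8% to 49.2%) in young mice and 6.96% ± 3.29 (1.41% to 11.4%) in old mice. Mup3 took similar shares, 26.1% ± 8.63 in young mice and 28.7% ± 8.63 in old mice. As a ratio within each library, counts of Mup20 were 1.33 to 8.37 times those of Mup7 in young mice (median 2.17) and 15.5 to 402 times in old mice (median 32.0). The highest young ratio was below the lowest old ratio.

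**Figure D2:**
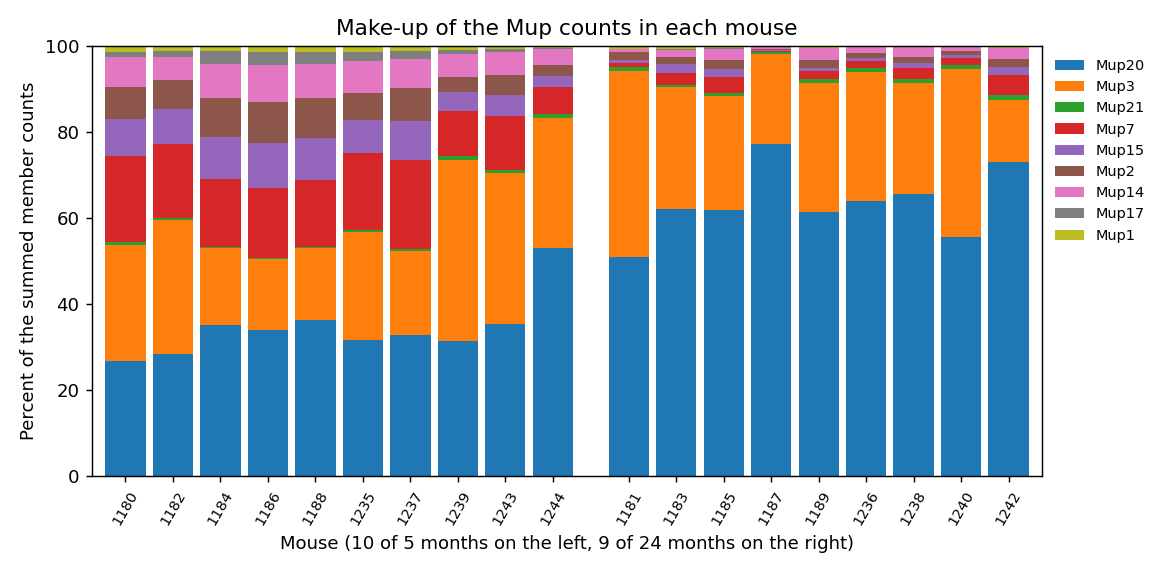
Percent of the summed counts of the 9 members held by each member, as 1 stacked bar per mouse, with 10 young mice on the left and 9 old mice on the right. Mup20 (the lowest segment) takes 26.6% to 53.1% in young mice and 51.0% to 77.3% in old mice, and the segments of the central members (above that of Mup21) shrink to between 1.41% and 11.4%.

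The other Mup rows gave the age differences along the cluster. Of these 12 rows, 11 passed the filter; Mup6, at 0 to 0.70 CPM, did not. From Mup4 at the near end through Mup19, the 16 tested Mup rows had age log2 fold changes of -5.11 to -1.53, with the smallest size in Mup10 (-1.53, SE 0.190). The next row along the chromosome, Mup5 (61831319 to 61835180), had -0.59 (SE 0.234), and with Mup20, Mup3 and Mup21 it completes a run of 4 rows between -0.68 and 0.01. Mup5 had only 1.145 ± 0.448 CPM in young mice and 0.77 ± 0.374 CPM in old mice. Mup4 (59956806 to 59960665), at the opposite end, is as divergent as the distal rows, with 92.41% identity to its closest relative Mup5, yet had a log2 fold change of -2.02 (SE 0.353) at 2.39 ± 1.78 CPM in young mice. Its stretch between ACCCATA and TATATA was 37 bases, within reach of the short stretches of Mup3 and Mup21. Mup6, which was not tested, had a stretch of 35 bases but 2 copies of AATCAAT, a mix of the distal and central patterns.

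**Figure D3:**
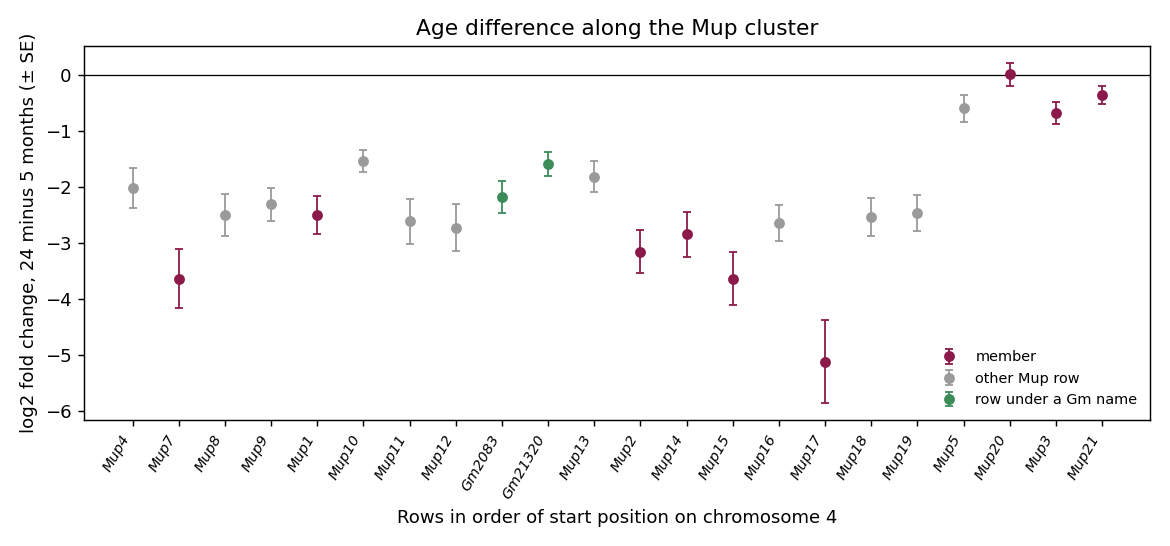
Log2 fold change of each tested row, old minus young, with its standard error (bars), in order of start position on chromosome 4; members, other Mup rows and 2 rows under Gm names are coloured separately. Rows up to Mup19 lie between -5.11 and -1.53, and the last 4, Mup5, Mup20, Mup3 and Mup21, lie between -0.68 and 0.01.

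Beyond the Mup names, 27 other rows started within 1 Mb of the outermost members, and 19 were tested. Of these, Gm2083 and Gm21320 lie inside the cluster; RefSeq lists Gm2083 as another name of Mup13 and names Gm21320 Mup22. Gm2083 averaged 5020 ± 2035 CPM in young mice and 1135 ± 401 CPM in old mice (log2 fold change -2.17, SE 0.282), and Gm21320 averaged 2035 ± 564 and 692 ± 212 CPM (log2 fold change -1.58, SE 0.214). Both rows start at 60817586, ending at 60821483 and 60821590, and Gm2083 is listed with 6 copies, so they may count the same reads. Adding both to all Mup rows gave a log2 ratio of -1.12 in the summed level, which may count such reads more than 1 time. Without these rows, an exclusion made after seeing the data, 17 neighbours remained, with 2 higher in old mice and 3 lower (edgeR, adjusted p under 0.05), against 30.9% of all rows in either direction. The 2 higher genes were Ugcg, a glycosphingolipid synthase (log2 fold change 0.49, adjusted p = 0.00233), and Slc31a2, a copper transporter (0.39, adjusted p = 0.0158). The 3 lower ones were E130308A19Rik (-0.38, adjusted p = 0.0223), Hsdl2, a peroxisomal dehydrogenase-like protein (-0.35, adjusted p = 0.0349), and Prpf4, a splicing factor (-0.25, adjusted p = 0.0245). These 5 were named after their values were seen, and the size of each is below that of the smallest difference among the 16 Mup rows up to Mup19.

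The cull day was not used to choose the members and was tested. Mup21 rose from the first to the second cull day, and it was the only member to pass, 1 of 9, against 12.3% of all rows in either direction and 5.72% in this direction. Its level was 108.9 ± 36.8 CPM in the 5 young mice of the first day and 190.9 ± 27.1 CPM in the 5 of the second, and 89.9 ± 21.6 and 147.3 ± 16.8 CPM in the 5 and 4 old mice. Days did not overlap within either age, and the log2 difference over both ages was 0.76 (SE 0.160, edgeR adjusted p = 0.0104). Without young mice 1184, 1186 and 1188 of the first day it was 0.65 and no longer passed (edgeR adjusted p = 0.0570). Within young mice alone the difference was 0.82 (edgeR adjusted p = 0.0643), and within old mice alone 0.71 (edgeR adjusted p = 0.447), neither past the threshold.

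Mup3 lay in the same direction by day, at 5317 ± 1351 and 8034 ± 823 CPM in young mice and 3775 ± 1096 and 4608 ± 1893 CPM in old mice. Its log2 difference was 0.45 (SE 0.193, edgeR adjusted p = 0.124), which did not pass. Old mouse 1242 of the second day had the lowest Mup3 of all 19 mice, 1785 CPM, and without it the difference was 0.58 and passed (edgeR adjusted p = 0.0356). The other 7 members had day differences of -0.69 to 0.33 on the log2 scale, none past the threshold. Second-day mice were also older by the dates in the labels (163 against 140 days in young mice, 742 against 719 days in old mice). That cannot be told apart from the day itself. What else differed between the days is not given in the sources used here.

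**Figure D4:**
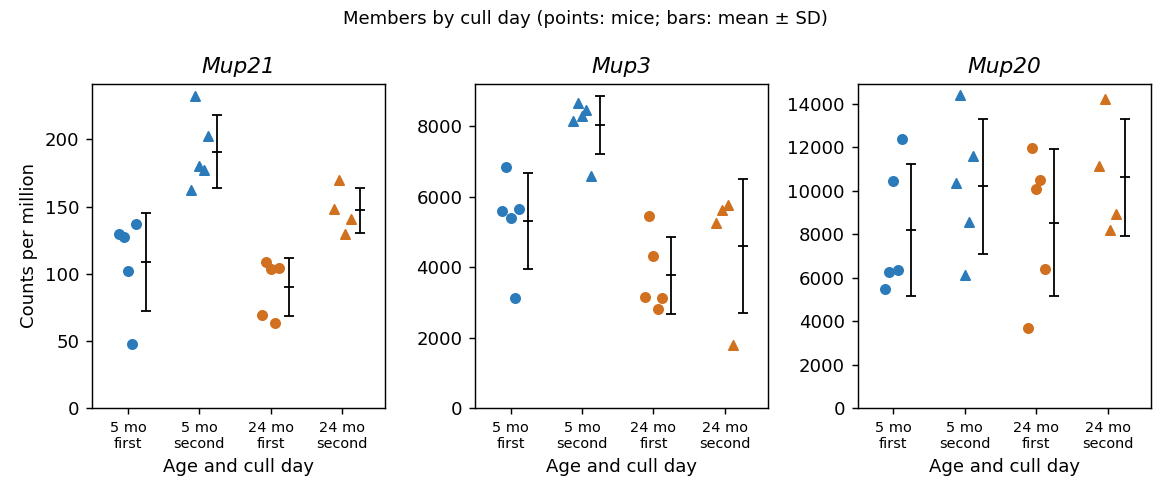
Level in CPM of Mup21, Mup3 and Mup20 in each mouse by age and cull day, with the mean and SD beside the points (5, 5, 5 and 4 mice). Second-day mice lie above first-day mice of the same age for Mup21, while old mouse 1242 (1785 CPM) lies at the bottom of Mup3 and the days overlap for Mup20.

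Whether the age difference itself varied with the cull day was tested as an interaction. No member passed in edgeR, and none of the 12269 rows did (0%), with 0 members and 799 rows (6.51%) at an unadjusted p under 0.05. DESeq2 called 10 rows and 0 members. On the first day alone the log2 fold changes by age were -5.00 for Mup17, -3.87 for Mup7 and 0.00 for Mup20. On the second day alone they were -5.25, -3.37 and 0.03.

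Members were next compared by how they varied between mice of the same age and day, as correlations of log2 CPM after removal of the 4 age by cull day means, a measure that leaves out the difference the members were selected on (19 mice, 36 pairs, permutation within the 4 groups, Benjamini-Hochberg adjustment over the pairs). All 15 pairs of central members varied together, with r of 0.785 to 0.973 and rho of 0.754 to 0.965 (largest adjusted permutation p = 0.00602 for r and 0.0096 for rho). The highest was Mup2 with Mup15 (r = 0.973, rho = 0.965, permutation p = 1e-05 for both, the smallest that the permutations can give). Within the first day r was 0.699 to 0.981 and within the second 0.836 to 0.994. After leaving out the 2 mice farthest from the median it was 0.735 to 0.959. These rows share most of their sequence, and Mup2 overlaps Mup14 and Mup15 in the table, so how much of their joint variation is shared reads was not tested.

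Mup20 with the central members gave r of 0.372 to 0.633 over 6 pairs (1 of 6 passed after adjustment by r and 6 of 6 by rho, at 0.558 to 0.653). Without the 2 farthest mice r was 0.464 to 0.724, with Mup1 and Mup20 moving from 0.372 to 0.724, and within the first and second day it was 0.358 to 0.638 and 0.407 to 0.628. Whether these pairs differ from the central pairs was not tested. Mup7 with Mup20, for example, gave r = 0.472 (permutation p = 0.12) and rho = 0.572 (permutation p = 0.0218). With Mup3, r was 0.22 to 0.366 over the 6 central members and none passed; it was 0.144 to 0.653 without the 2 farthest mice (0.653 for Mup3 with Mup7, from 0.357), 0.481 to 0.73 on the first day and -0.105 to 0.0587 on the second. With Mup21, r was 0.291 to 0.565 over the 6 central members, and 1 of 6 passed by r and none by rho. That pair was Mup7 with Mup21 (r = 0.565, permutation p = 0.00382, adjusted p = 0.00859; rho = 0.514, permutation p = 0.0323, adjusted p = 0.0528), with r = 0.389 after leaving out the 2 farthest mice. Within days, r with Mup21 was 0.307 to 0.62 on the first and 0.17 to 0.465 on the second, and within ages -0.061 to 0.246 in young mice and 0.693 to 0.919 in old mice, a difference between ages that was not tested. Mup3 with Mup21, the most alike distal pair in sequence, gave r = 0.531 (permutation p = 0.016, adjusted p = 0.032) and rho = 0.416 (permutation p = 0.0893, adjusted p = 0.134). Its r was 0.53 after leaving out the 2 farthest mice, but 0.86 on the first day and 0.0262 on the second, so it did not hold within both days. A residual SD on the log2 scale was taken from CPM by library totals, without the TMM scaling used for the correlations. It was largest for Mup17 (1.54) and Mup7 (1.23), and smallest for Mup21 (0.40), Mup3 (0.48) and Mup20 (0.53).

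Across the same residuals, the genes most like the summed member level were named out of 11124 genes with a mean of at least 1 CPM (19 mice, given as a description). The 5 highest were Gstp2 (r = 0.84, rho = 0.85), Gstp1 (r = 0.80, rho = 0.80), Rprd1a (r = 0.79, rho = 0.84), Capn8 (r = 0.78, rho = 0.73) and Fam222b (r = 0.77, rho = 0.68). Gstp1 and Gstp2 encode pi-class glutathione transferases and are on the list of male-biased liver genes. The 5 lowest were Vps51 (r = -0.85, rho = -0.85), Cyp2a22 (r = -0.79, rho = -0.75), Atp6v0d2 (r = -0.78, rho = -0.75), Gstm2 (r = -0.78, rho = -0.62) and Cyp2b9 (r = -0.76, rho = -0.68). Atp6v0d2, a proton pump subunit, is on the list of female-biased liver genes. So is Cyp2b9, a cytochrome P450, but it reached the mean of 1 CPM through old mice alone (mean 0.0582 CPM in young mice and 15.8 CPM in old mice), so its r says little about young mice. The 5 highest genes had r of 0.74 to 0.87 with Mup20 alone and 0.50 to 0.62 with Mup7 alone, and the 5 lowest -0.86 to -0.57 and -0.70 to -0.59. Of the 10 names, 6 stayed when young mice 1184, 1186 and 1188 were left out and 4 when Mup20 alone was the reference.

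Lists of hormone signalling genes and hepatocyte transcription factors were then read, each against the 30.9% of all rows past the threshold for age. These lists hold regulators of the family but also genes not known to drive it. In growth hormone signalling, 2 of 15 tested genes rose in old mice and 0 fell. These were Prlr, the prolactin receptor (log2 fold change 1.15, edgeR adjusted p = 0.000385), and Trim24, a nuclear co-regulator (0.56, edgeR adjusted p = 0.0182). Prlr is also on the list of female-biased liver genes. With a score of other-cell markers added to the fit, 1 gene of this list passed as higher. The growth hormone receptor Ghr had 439 ± 63.0 CPM in young mice and 385 ± 60.6 CPM in old mice (log2 fold change -0.23, edgeR adjusted p = 0.116). Stat5b, the transcription factor that carries its signal, had 56.1 ± 11.7 and 54.5 ± 9.24 CPM (-0.09, edgeR adjusted p = 0.573). Bcl6, a repressor at STAT5 sites, varied widely, at 4.63 to 74.8 CPM in young mice and 5.47 to 54.0 CPM in old mice (-0.86, edgeR adjusted p = 0.167).

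Of the hormone receptors and hormone-converting enzymes, 2 of 10 rose and 3 fell, and 2 rose and 1 fell with that score in the fit. Of the thyroid hormone receptors, Thra rose by 0.36 (edgeR adjusted p = 0.0176), and Thrb, named after its values were seen, fell from a mean of 29.7 to 23.9 CPM (-0.35, edgeR adjusted p = 0.0201). Dio1, the deiodinase that activates thyroid hormone, fell from 86.0 ± 30.6 to 34.1 ± 18.3 CPM (-1.40, edgeR adjusted p = 0.00075). The glucocorticoid receptor Nr3c1 had a log2 fold change of -0.02 (edgeR adjusted p = 0.846), and Zhx2, a regulator of sex-biased liver genes, had -0.13 (edgeR adjusted p = 0.307). Of 20 hepatocyte transcription factors 6 fell and 0 rose, led by Nfix (-0.49, edgeR adjusted p = 0.00355), Onecut2 (-0.41, edgeR adjusted p = 0.00799) and Nr5a2 (-0.47, edgeR adjusted p = 0.0138). With the other-cell score in the fit, 2 of these factors passed as lower.

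Genes that share the male bias of the family came next. Of 20 tested male-biased genes without the Mup rows, 11 fell and 0 rose, with a median log2 fold change of -0.77 against 0.00 over all rows, and 7 fell once the other-cell score was added to the fit. They included Ugt2b1 (-0.90, edgeR adjusted p = 5.28e-05) and Ugt2b38 (-0.83, edgeR adjusted p = 7.6e-05), both UDP-glucuronosyltransferases, and Cyp4a12b, a fatty acid hydroxylase (-1.54, edgeR adjusted p = 0.000449). Selenbp2, a selenium-binding protein named here after its values were seen, fell from a mean of 597 to 112 CPM (-2.44, edgeR adjusted p = 0.000591), close to the -2.49 of Mup1. Of 13 tested female-biased genes, 5 rose and 0 fell, among them Ntrk2, a neurotrophin receptor (3.21, edgeR adjusted p = 1.79e-05), and Cyp2b9, which had 0 to 0.158 CPM in young mice and 2.01 to 82.1 CPM in old mice and so passed the filter on low counts through the old mice alone.

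Other secreted proteins of the liver were not called lower in edgeR. Of 20 abundant secreted proteins, 4 rose and 0 fell, led by Apoa1 (0.41, edgeR adjusted p = 0.00666), Alb, the albumin gene (0.47, edgeR adjusted p = 0.0262), and Apoh (0.27, edgeR adjusted p = 0.0403). DESeq2 called 3 of the 20 as lower. Of 9 tested lipocalins outside the family and 25 acute phase genes, none passed in edgeR in either direction. Without young mice 1184, 1186 and 1188, 5 of these lipocalins and 21 of the acute phase genes rose. Those 3 mice had 3020 to 5264 CPM of Mup7 and 6353 to 12377 CPM of Mup20, inside the range of the other young mice. Outside that range, mouse 1188 was the highest young mouse for Mup17 (945.4 CPM), and mice 1186 and 1184 were the lowest and second lowest for Mup3 (3125 and 5389 CPM) and Mup21 (47.6 and 101.8 CPM).

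The markers of other cells that rose with age were set beside the family once more. With their score as a covariate, the age log2 fold changes were -4.79 (SE 0.722) for Mup17, -3.28 (SE 0.515) for Mup15, -3.21 (SE 0.581) for Mup7, -2.92 (SE 0.441) for Mup2, -2.64 (SE 0.471) for Mup14 and -2.16 (SE 0.360) for Mup1. Those of the distal members were -0.32 (SE 0.201) for Mup3, 0.01 (SE 0.249) for Mup20 and 0.01 (SE 0.166) for Mup21. Without the covariate they were -0.68, 0.01 and -0.35. As values of the contrast that chose the members, these are a description, and the part of other cells in the age differences was not tested. Old mouse 1183, with the highest Mup17 and Mup1 among old mice, had the lowest summed macrophage level of all 19 mice (74.5 CPM), and old mouse 1187, lowest in 5 central members, had the highest (3916 CPM). Other old mice did not follow that order: mouse 1242, second highest in macrophage level (810 CPM), had the third highest Mup7 (578 CPM), and mouse 1181, at the median (480 CPM), the second lowest (55 CPM). The part of those cells in the spread among old mice was not tested.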

How the data were processed

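The authors deposited 1 table of estimated counts by gene for 19 libraries, written by HOMER's analyzeRepeats on mm10 with RefSeq exons and raw counts, per the file headers; STAR is also named, per the submitters' processing notes. How reads with several matches were assigned is not given in the sources used here. Counts were multiples of 0.5 (29.2% not whole) and were rounded for tests.

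Age (with cull day as covariate), cull day and their interaction were fitted with edgeR 4.0.16 (R 4.3.3; limma 3.58.1 loaded): quasi-likelihood test, TMM scaling, filterByExpr by age group (minimum count of 10), Benjamini-Hochberg adjustment over 12269 rows. The fits had been chosen for plain counts and were kept. CPM used unrounded counts. Residuals used a prior count of 2; relations used 100000 permutations. The script was tested on simulated data. Alternatives were DESeq2 1.42.0, other scaling, filters and sums, single cull days, an other-cell covariate, and leaving out mice.

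Members and lists were chosen with earlier results of these data known. Named were all members and Mup rows, up to 3 passing genes per list by smallest age p, the 5 most and least alike genes, and Stat5b, Ghr, Nr3c1, Zhx2, Bcl6 and Alb; 1 further gene that this rule names is not reported here. The labels give 1 mouse per library. All 19 value columns matched a mouse. Transcripts were from GENCODE M21 and promoters from RefSeq (GRCm38.p6). Python 3.11.15, scipy 1.17.1, pandas 2.3.3, numpy 2.4.6, matplotlib 3.10.9 and Biopython 1.88 were used.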

Additional observations from a re-analysis of the deposited data

Results flagged for a closer look

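Mup17 in old mice was singled out because of mouse 1183, which had 64.1 CPM while the next highest old mouse had 25.7 CPM. That gap was 0.616 of the whole range of the 9 old mice, above the value of 0.493 used for groups of that size. The rule was applied to 20 groups (the members and sums in each age), and chance marks about 1 in 20 groups of normally distributed values. Mup17 in old mice was skewed on the CPM scale used (mean 15.3, median 4.5 CPM), so that rate need not hold here.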

How the results depend on the processing

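The number of members at least 1 log2 unit lower in old mice was 6 under all 11 alternatives and in all 19 fits that left out 1 mouse. All 270 single-member age values moved by less than the residual SD of that member between mice. That bound (0.40 to 1.54 log2 units) is wider than the SE of each member's age value (0.160 to 0.735), so it was hard to exceed and nothing is read from it. Mup3 ranged from -0.84 to -0.32 over these fits. Mup20, whose age value was 0.01, was below 0 in 12 of 30 of these fits (-0.05 to 0.20), and Mup21 was above 0 in 1 of 30, at 0.01 with the other-cell covariate; the other 7 members kept their sign in all. The summed level stayed lower, at -1.12 to -0.77 over 9 alternatives and -0.94 to -0.75 leaving out 1 mouse. The value of -1.12 came from the sum with Gm2083 and Gm21320, which may count some reads more than 1 time. For cull day, 224 of 234 single-member values kept their call and direction. The number of members called was 0 without young mice 1184, 1186 and 1188 and 1 to 2 leaving out 1 mouse, with 2 without old mouse 1242. Small day differences changed sign: Mup2 to 0.0700 and Mup15 to 0.00882 without those 3 young mice, and Mup14 to -0.0510 without old mouse 1187, with a range of -0.0756 to 0.241 leaving out 1 mouse. Summed over the lists, with a gene on 2 lists counted in each, 78 calls were made for age, and 48 after adding the other-cell score to the fit. Of the 10 genes most or least like the summed level, 6 stayed without the 3 young mice and 4 with Mup20 alone as reference. The cause of these shifts was not tested. The neighbours called were 9 within 2 Mb and 5 without Gm2083 and Gm21320, against 7. No paired analysis was possible because the library numbers are not shared between ages. Depth, at 17381439 to 20287628 counts, limits Mup4, Mup5 and Mup6, and the division of reads among near-identical rows limits each central member taken alone. Sharing of reads with the other Mup rows also limits the sum of the central members.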

Other observations

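The regulators of the family were also read against its variation between mice of the same age and day (r over 19 mice with the summed member level, as a description). Stat5b had r = 0.34, Nr3c1 had 0.18, and Ghr, Bcl6 and Zhx2 had 0.03, 0.03 and 0.01. Albumin had r = -0.32. Mup2 counts were 0.381 to 0.535 times the sum of Mup14 and Mup15 in young mice (median 0.488) and 0.438 to 1.11 times in old mice (median 0.489). Mup8 and Mup13, each with 98.88% identity to a neighbour in the family and 98.88% and 98.78% to Mup7, had age log2 fold changes of -2.50 (SE 0.376) and -1.81 (SE 0.280), smaller in size than the -3.64 (SE 0.527) of Mup7.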
